A study of Homo sapiens and Mus musculus with 17 samples.

Results

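The 9 genes described here encode plasma membrane amino acid transporters, or the chain that carries such transporters to the cell surface, whose transcription is known to be induced when cells lack amino acids or load the endoplasmic reticulum (ER) with misfolded protein. They are SLC7A11, SLC7A5, SLC3A2, SLC7A1, SLC7A3, SLC38A2, SLC1A4, SLC1A5 and SLC6A9. They were taken by symbol, ignoring case, from the 62714 human and 55491 mouse genes for which expression values were given, and each was found once in each species. Expression had been measured by RNA-seq of polyA RNA in 9 HEK293T cultures and in brown adipose tissue (BAT) of 8 mice on the C57BL/6J background, matched littermates of 12 weeks of age. HEK293T is a transformed line from human embryonic kidney. The HEK293T libraries came from 3 WT, 3 HRD1 KO and 3 SEL1L KO cultures. The knockout lines were made with CRISPR/Cas9, the WT controls had received the plasmid without a guide, and whether a line was a single clone was not given in the sources used here. The BAT libraries came from 3 WT mice, 2 Hrd1 flox/flox;Ucp1-Cre mice (Hrd1 KO) and 3 Sel1l flox/flox;Ucp1-Cre mice (Sel1L KO). The Ucp1 promoter drives Cre in brown adipocytes, so other cells of the tissue keep both genes. SEL1L and HRD1, the latter encoded by SYVN1, form the ER-associated degradation complex that takes misfolded proteins out of the ER, and the comparisons ask how the mRNA of each transporter differed when either partner was deleted.

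As background, ER stress and amino acid shortage converge on the phosphorylation of the translation factor eIF2 alpha, which favours translation of the transcription factor ATF4. ATF4, with C/EBP family partners, binds composite sites known as C/EBP-ATF response elements (CARE) and raises amino acid synthesis enzymes, tRNA charging and amino acid uptake. The oxidative stress factor NRF2 also raises SLC7A11, and the ER stress factors ATF6 and XBP1 raise chaperones and degradation components. In brown fat, amino acids are a fuel and a carbon source beside fatty acids and glucose.

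RefSeq promoter windows of GRCh38.p14, from 250 bases before to 50 bases from the start site on, were at hand for 7 of the 9 human genes, in 12 windows, and none was matched for SLC7A11 and SLC7A3. Both strands were searched for the CARE core TGATGNAA, the antioxidant response core TGACNNNGC and the XBP1-type core TGACGTG, where N is any base. The CARE core lay in 4 of the 12 windows, against 3.62% of 35116 human promoters. The antioxidant response core lay in 4 of the 12 windows, against 13.3% of promoters, and TGACGTG lay in 0 of the 12, against 1.97%. A match is a description of the letters, and binding was not measured. The stretches of 30 bases around the 4 CARE cores are shown because ATF4 is known to act through this element. Each is given 5′ to 3′ on the strand of the gene, with the core in capitals.

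SLC1A4 (chr2:64989381-64989410, plus strand): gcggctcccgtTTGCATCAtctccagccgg

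SLC3A2 (chr11:62881719-62881748, plus strand): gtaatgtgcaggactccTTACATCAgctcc

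SLC7A1 (chr13:29595663-29595692, minus strand): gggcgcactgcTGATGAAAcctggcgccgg

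SLC1A5 (chr19:46784893-46784922, minus strand): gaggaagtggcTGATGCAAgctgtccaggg

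In SLC1A4 the match TTGCATCA, TGATGCAA on the opposite strand, began 7 bases before the start site of its window, on chromosome 2 from 64989392 to 64989399. This start site is internal to the gene, which reaches from 64988477 to 65023865 in GENCODE v44, and the match lay within an annotated exon. The window at the outer start of SLC1A4 held none of the 3 cores. The match in SLC3A2, on chromosome 11 from 62881736 to 62881743, began 37 bases after the start site, and that in SLC7A1, on chromosome 13 from 29595674 to 29595681, began 7 bases after it. Both also lay in exons. The fourth CARE core, TGATGCAA, was in the window of an inner start of SLC1A5, on chromosome 19 from 46784904 to 46784911. The windows of SLC38A2 and SLC6A9 held none of the 3 cores, and that of SLC7A5 held only an antioxidant response core.

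Expression is given as FPKM (fragments per kilobase of transcript, relative to the library total), so levels of different genes are compared per length. Changes are log2 fold changes of FPKM + 0.1 with their standard error (SE), which understate the change of low genes. P-values are from limma, adjusted by the Benjamini-Hochberg method over all genes tested, with thresholds of 0.05 in HEK293T and 0.01 in BAT. A gene was tested when 3 HEK293T or 2 BAT libraries reached 1 FPKM, which left 15796 genes in HEK293T, among them 8 of the 9 transporters, and 12473 in BAT, among them 6 of the 9. Nothing in the labels says that HEK293T cultures were set up separately, so their p-values measure the spread between these libraries, which may be technical. Read totals were unknown, and relative depth, estimated from the smallest steps of low values, ran from 0.737 to 1.37 of the median library in HEK293T and from 0.751 to 1.28 in BAT.

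The targeted genes went partly against the labels. SEL1L had an FPKM of 4.39, 8.74 and 12.9 in the HEK293T WT libraries and of 1.82, 3.36 and 2.59 in SEL1L KO, each below every WT library. SYVN1 in the libraries labelled HRD1 KO was above WT, at 22.5, 18.5 and 19.8 against 17.0, 16.7 and 16.9 in WT. In BAT, Syvn1 was at 14.1 and 13.8 in the libraries labelled Hrd1 KO against 5.20 to 5.65 in WT, and Sel1l at 25.2, 8.17 and 8.38 in those labelled Sel1L KO against 9.10 to 12.9. Whether the counted part of these transcripts includes the edited or deleted part was not known, so the values do not check the deletions, and groups are given by label. Exons of SYVN1 overlap those of FAU on the same strand, at 929 to 1471 FPKM, and those of MRPL49 on the opposite strand, at 42.1 to 65.6. The 5 HEK293T epithelial and neuronal-type markers had summed FPKM of 347 to 765, while 4 blood cell markers summed to 1.68 to 3.61 with PTPRC at 0 throughout. All 8 brown adipocyte markers were present in BAT, and their FPKM summed to 22444 to 24699 in WT, against 17151 to 22092 in Hrd1 KO and 18198 to 22489 with the Sel1L KO label.

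In BAT, the first replicate labelled Sel1L KO stood apart from its group. Its Atf4 FPKM was 361.5, against a mean of 53.5 in the other 2 Sel1L KO libraries and 41.5 in WT, and its Hspa5, the ER chaperone BiP, was 3598, against 635 and 119. Log2 fold changes of transporters and listed genes in Sel1L KO against WT, from the fit of all 8 libraries, are also given without it. List medians and the difference in log2 chain ratio are given with all libraries only. The 8 skeletal muscle markers summed to 415 FPKM in Hrd1 KO replicate 1 and 79.6 in Sel1L KO replicate 1, against 1.68 to 4.61 in WT, 14.1 in Hrd1 KO replicate 2 and 6.95 and 2.94 in the other Sel1L KO libraries. The 9 macrophage markers summed to 47.3 to 63.0 in WT, 90.3 and 97.8 in Hrd1 KO, and 196, 97.7 and 105 in Sel1L KO, with none at 0 in every library. Ranges of summed FPKM in WT, Hrd1 KO and Sel1L KO were 65.0 to 87.5, 106 to 138 and 69.0 to 119 for 5 endothelial markers, and 55.0 to 82.0, 108 to 126 and 110 to 127 for 4 fibroblast and preadipocyte markers. They were 815 to 1337, 1384 to 1672 and 1287 to 2610 for 6 red cell markers, 0.610 to 1.55, 1.03 to 1.06 and 0.930 to 3.48 for 6 lymphocyte markers, and 31.9 to 53.6, 121 to 134 and 39.0 to 85.1 for 2 white adipocyte markers. The part of these cells in the transporter values below was not tested. In tissue, fewer cells of a type and less RNA per cell cannot be told apart.

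In HEK293T cells, 0 of the 8 tested transporters passed the adjusted threshold in limma in any of the 3 comparisons. At an unadjusted p under 0.05 only SLC1A4 passed, in HRD1 KO and in SEL1L KO against WT. This was in each case 1 of 8, where 2.0% and 1.49% of all tested genes passed. The fit behind these counts does not use the replicate number, nor do the SEs and p-values below unless the block is named. The adjusted threshold was passed by 0.0570% of genes in HRD1 KO and by 0.0317% in SEL1L KO. Between the 2 knockouts, 0 of the 8 transporters had an unadjusted p under 0.05, against 2.34% of all genes, and 0 genes in all passed the adjusted threshold. The median log2 fold change of the 8 transporters was 0.22 in HRD1 KO and 0.29 in SEL1L KO, beside -0.05 and -0.06 for all tested genes. With the replicate number as a block in the fit, 25 and 12 genes in place of 9 and 5 passed the adjusted threshold, still with 0 of the transporters. Both knockouts were compared with the same WT libraries.

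**Figure D1:**
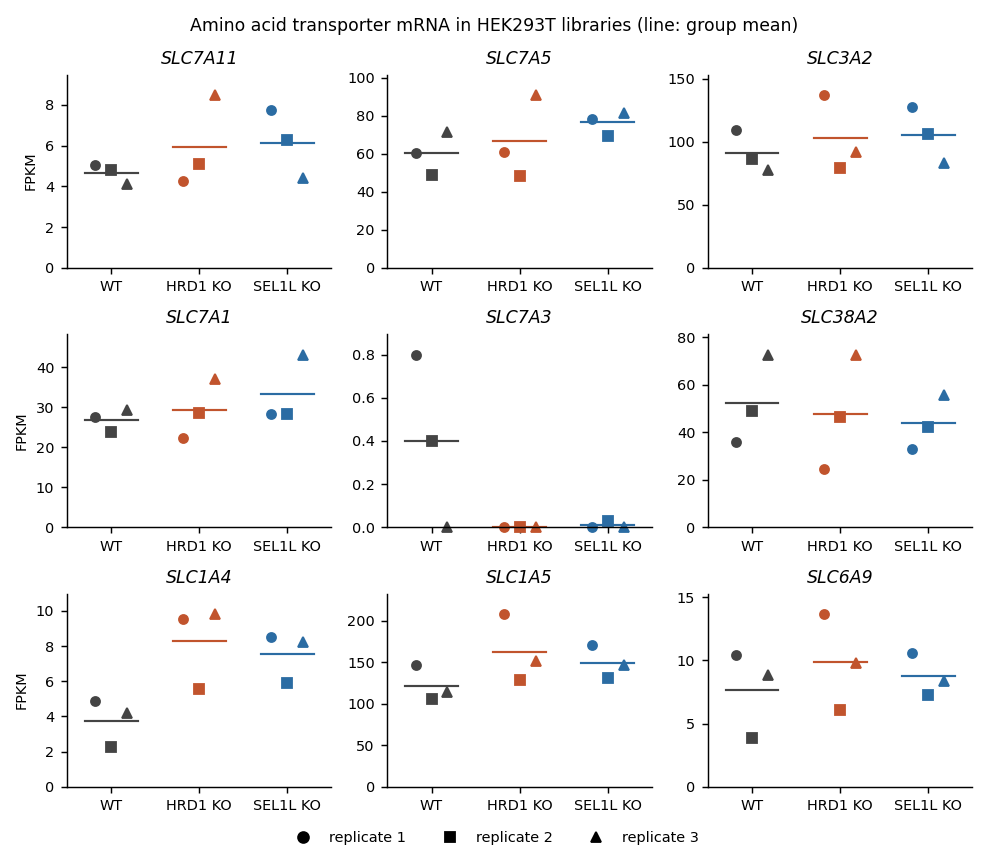
FPKM of the 9 transporter genes in each HEK293T library, 1 panel per gene with its own axis from 0, by genotype; symbols mark the replicate number and lines the group mean. Only for SLC1A4 do all 6 knockout libraries, at 5.58 to 9.81, lie above all 3 WT libraries, at 2.27 to 4.85.

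SLC1A4 (ENSG00000115902) encodes ASCT1, a sodium-dependent exchanger of alanine, serine, cysteine and threonine. Its FPKM was 4.85, 2.27 and 4.18 in WT, 9.52, 5.58 and 9.81 in HRD1 KO, and 8.51, 5.90 and 8.23 in SEL1L KO. Every knockout library lay above every WT library, which held for 1.96% of all tested genes in HRD1 KO and 2.41% in SEL1L KO. The mean was 3.77 ± 1.34 (SD, n = 3) in WT against 8.30 ± 2.36 (n = 3) and 7.55 ± 1.43 (n = 3), a log2 fold change of 1.14 (SE 0.35, unadjusted p = 0.00847, limma) and of 1.03 (SE 0.35, unadjusted p = 0.0145, limma). Neither passed the adjusted threshold, with an adjusted p of 1.00 for both. The knockouts differed from each other by 0.11 (95% interval -0.67 to 0.89).

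Replicate 2 had the lowest SLC1A4 value in each of the 3 groups. Same-numbered HEK293T libraries deviated together from their group means across genes, so each knockout library was also set beside the WT library of its number. SLC1A4 was then 1.96, 2.46 and 2.35 times the WT value in HRD1 KO and 1.75, 2.60 and 1.97 times in SEL1L KO. With the replicate number as a block, the log2 fold changes stayed at 1.14 and 1.03 with an SE of 0.19, and the adjusted p was 0.0923 and 0.213 (limma), still above the threshold. Leaving out WT replicate 2, the lowest library, gave 0.82 (SE 0.34, unadjusted p = 0.0389, limma) and 0.71 (SE 0.34, unadjusted p = 0.0660, limma).

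**Figure D2:**
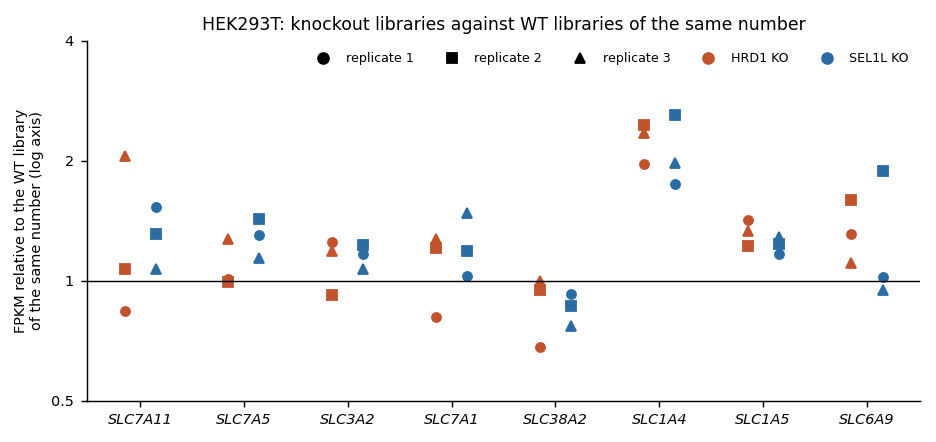
FPKM of 8 transporter genes in each HEK293T knockout library divided by the FPKM of the WT library with the same number, on a log axis; colours mark the knockout and symbols the number. SLC1A4 lies between 1.75 and 2.60 in all 6 libraries and SLC1A5 between 1.17 and 1.42, while SLC38A2 lies between 0.681 and 1.00.

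SLC1A5 (ENSG00000105281), the neighbouring family member ASCT2, is the main importer of glutamine in many cell lines. It was the most abundant transporter of the set in WT, at 146, 105 and 114 FPKM. It measured 208, 129 and 151 in HRD1 KO and 170, 130 and 147 in SEL1L KO, so the groups overlapped. Each knockout library was above the WT library of its number, by 1.42, 1.22 and 1.33 times in HRD1 KO and 1.17, 1.24 and 1.29 times in SEL1L KO. In SEL1L KO all 3 libraries were also above WT in this way for SLC3A2, SLC7A5, SLC7A1 and SLC7A11. The share of all tested genes with 3 such pairs was not worked out, so these pairs, here and below, are a description only. The log2 fold changes of 0.40 and 0.30 (SE 0.22 for both) had unadjusted p of 0.0929 and 0.198 (limma). These SEs and p-values do not use the pairing by number.

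The heavy chain SLC3A2 (ENSG00000168003), known as 4F2hc or CD98, pairs with several light chains and brings them to the plasma membrane. Its FPKM was 109, 86.0 and 77.7 in WT, 137, 79.3 and 92.1 in HRD1 KO, and 127, 106 and 82.9 in SEL1L KO. The groups overlapped, with log2 fold changes of 0.15 and 0.21 (SE 0.25 for both).

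SLC7A5 (ENSG00000103257), or LAT1, is a light chain that exchanges large neutral amino acids such as leucine. It was at 60.3, 48.7 and 71.3 in WT, 60.8, 48.4 and 90.7 in HRD1 KO, and 78.4, 69.5 and 81.6 in SEL1L KO. The groups again overlapped, with log2 fold changes of 0.12 and 0.36 (SE 0.24 for both). In SEL1L KO every library was above the WT library of its number, by 1.3, 1.43 and 1.14 times. The pseudogenes SLC7A5P1 and SLC7A5P2 reached 3.99 and 6.22 FPKM, and reads from near-identical copies cannot be assigned with certainty.

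SLC7A11 (ENSG00000151012), or xCT, is the light chain that imports cystine in exchange for glutamate. Its level was low and close between WT libraries, at 5.06, 4.78 and 4.11, and more spread in HRD1 KO (4.25, 5.11 and 8.48) and SEL1L KO (7.74, 6.26 and 4.41). SLC7A11 had log2 fold changes of 0.29 and 0.36 (SE 0.32 for both). In HRD1 KO the highest value was in replicate 3 and in SEL1L KO in replicate 1. Replicate 2 was above every WT library in both, at 5.11 and 6.26, in HRD1 KO only slightly.

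The proportion of light to heavy chain mRNA within a library overlapped between WT and knockouts for SLC7A5 and SLC7A11. SLC7A5 was 0.551, 0.567 and 0.919 of SLC3A2 in WT, 0.444, 0.611 and 0.985 in HRD1 KO, and 0.615, 0.656 and 0.984 in SEL1L KO. SLC7A11 ran from 0.0463 to 0.0556 of SLC3A2 in WT, while HRD1 KO spanned 0.0310 to 0.0921 and SEL1L KO spanned 0.0532 to 0.0607. The log2 ratio differed from WT by -0.03 and 0.16 for SLC7A5 (exact two-sided permutation p = 1.00 and 0.50) and by 0.14 and 0.16 for SLC7A11 (p = 0.800 and 0.200, same exact test), in a design of 3 against 3 that cannot go below 0.10. This test does not use the pairing by number. In SEL1L KO, both ratios were above those of the same-numbered WT library in all 3 pairs, by the least for SLC7A11 in replicate 3 (0.0532 against 0.0529).

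The cationic amino acid transporter SLC7A1 (ENSG00000139514), or CAT1, takes up arginine and lysine. It was at 27.5, 23.7 and 29.2 FPKM in WT, 22.3, 28.5 and 37.0 in HRD1 KO, and 28.4, 28.2 and 43.1 in SEL1L KO, and its log2 fold changes were 0.10 and 0.29 (SE 0.25 for both). Its relative SLC7A3 (ENSG00000165349), or CAT3, was near or at 0. It was listed at 0.80, 0.40 and 0 in WT, at 0 in all HRD1 KO libraries, and at 0, 0.03 and 0 in SEL1L KO, and did not enter the test.

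SLC38A2 (ENSG00000134294), or SNAT2, a sodium-coupled importer of small neutral amino acids that is known to rise in amino acid starvation, had the opposite sign. Its FPKM was 35.8, 49.0 and 72.6 in WT, 24.3, 46.4 and 72.7 in HRD1 KO, and 33.1, 42.3 and 56.0 in SEL1L KO. Replicate 3 was the highest and replicate 1 the lowest in all 3 groups, and the spread between numbers exceeded that between genotypes. The log2 fold changes were -0.21 and -0.23 (SE 0.40 for both), and in SEL1L KO all 3 libraries were below the WT library of their number, at 0.926, 0.863 and 0.770 of it.

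SLC6A9 (ENSG00000196517), or GLYT1, imports glycine. It was at 10.4, 3.83 and 8.84 FPKM in WT, 13.6, 6.09 and 9.77 in HRD1 KO, and 10.6, 7.23 and 8.38 in SEL1L KO, with the lowest value of each group in replicate 2. SLC6A9 had log2 fold changes of 0.40 and 0.28 (SE 0.41 for both). Its exons overlap those of CCDC24 on the opposite strand, which was at 1.74 to 5.36 FPKM, and strandedness of the counting was not given in the sources used here. Ordered by mean WT level, the set ran from SLC1A5 (122 ± 21.5, SD, n = 3) over SLC3A2 (91.0 ± 16.4), SLC7A5 (60.1 ± 11.3), SLC38A2 (52.5 ± 18.7), SLC7A1 (26.8 ± 2.82), SLC6A9 (7.68 ± 3.42), SLC7A11 (4.65 ± 0.488) and SLC1A4 (3.77 ± 1.34) to SLC7A3 (0.400 ± 0.400). The WT values of SLC1A5 and SLC3A2 overlapped, as did those of SLC7A5 and SLC38A2, and those of SLC6A9, SLC7A11 and SLC1A4 with each other.

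The 2 HEK293T knockouts were close to each other for most of the set, within wide intervals. SLC7A5 had the largest difference, lower in HRD1 KO by a log2 fold change of -0.24 (95% interval -0.79 to 0.30). SLC7A1 differed by -0.18 (-0.73 to 0.37), SLC7A11 by -0.07 (-0.79 to 0.65) and SLC3A2 by -0.05 (-0.61 to 0.50). SLC6A9 differed by 0.11 (-0.80 to 1.02), SLC1A5 by 0.10 (-0.38 to 0.59) and SLC38A2 by 0.02 (-0.86 to 0.91).

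Against WT BAT, 0 of the 6 tested transporters passed the adjusted threshold in limma with all 8 libraries. Of all tested genes, 0.369% passed in Hrd1 KO and 0.104% in Sel1L KO. At an unadjusted p under 0.05, 3 of the 6 passed in Hrd1 KO (Slc7a5, Slc1a5 and Slc6a9, all higher), where 27.4% of all genes did, and 1 of the 6 in Sel1L KO (Slc7a5, higher), where 17.8% did. Between the 2 knockouts 0 of the 6 passed the adjusted threshold, against 0.0401% of all genes, and 2 (Slc1a5 and Slc6a9, higher in Hrd1 KO) had an unadjusted p under 0.05, against 16.7%. Slc7a5, Slc7a1 and Slc6a9 were tested only because knockout libraries reached an FPKM of 1. A difference in these 3 was thus built into the filter, and this limit holds for their p-values below. Slc6a9 reached 1 only in Hrd1 KO, so the limit also covers its comparison between knockouts. Only Slc1a5, Slc3a2 and Slc38a2 were above 1 in WT.

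FPKM shifted as a whole in Hrd1 KO. Over all genes tested, the median log2 fold change there was 0.42, against 0.09 in Sel1L KO, and median-ratio scaling of the libraries moved them to -0.02 and 0.00. In Hrd1 KO, both libraries lay above every WT library for all 6 tested transporters, but also for 51.1% of all tested genes. After median-ratio scaling this held for 4 of the 6 (Slc7a5, Slc7a1, Slc6a9 and Slc1a5) and for 21.1% of all genes. In Sel1L KO it held for 3 of the 6 (Slc7a5, Slc7a1 and Slc3a2) and 17.7% of all genes. Without replicate 1 it held for 4 of the 6, Slc1a5 joining, and for 34.4%. Slc7a5, Slc7a1 and Slc6a9 passed the filter only through knockout libraries, so for these 3 the shares of all genes are no fair comparison.

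**Figure D3:**
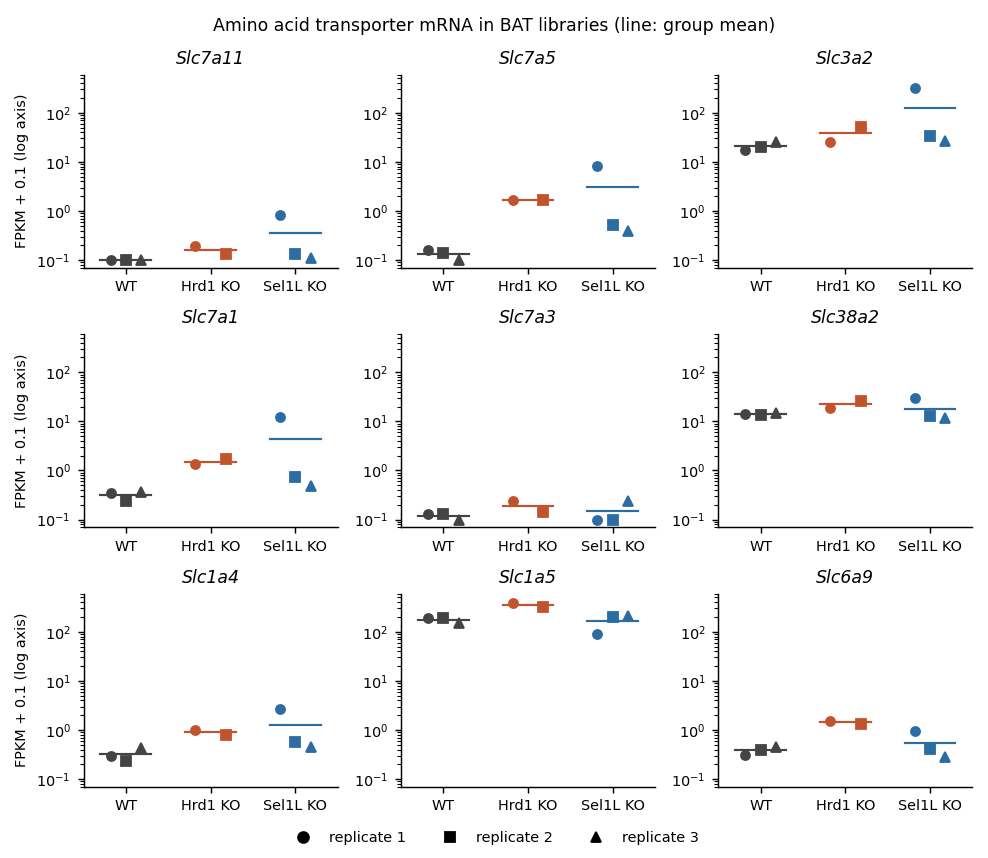
FPKM + 0.1 of the 9 transporter genes in each BAT library on a shared log axis, by genotype; symbols mark the replicate number and lines the group mean. Sel1L KO replicate 1 holds the highest value for 6 of the 9 genes, while Slc1a5 is lowest there, at 88.6.

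Slc1a5 (ENSMUSG00000001918; GRCm38 chromosome 7, 16781340 to 16798274) was the most abundant transporter of the set in WT BAT as in WT HEK293T, and in every other BAT library except Sel1L KO replicate 1, where Slc3a2 was higher. Its FPKM was 187, 189 and 149 in WT, 391 and 321 in Hrd1 KO, and 88.6, 200.4 and 209.7 in Sel1L KO. Both Hrd1 KO libraries were above all others. The log2 fold change in Hrd1 KO was 1.03 (SE 0.35, adjusted p = 0.113, limma). Without Sel1L KO replicate 1, it was the same 1.03 with an SE of 0.15 and passed the threshold (adjusted p = 0.00475, limma), where 6.09% of all genes passed. After median-ratio scaling it was 0.57 (SE 0.31). In Sel1L KO the change was -0.16 (SE 0.31), and 0.24 (SE 0.15) without replicate 1. Hrd1 KO exceeded Sel1L KO by 1.19 (SE 0.35, adjusted p = 0.202, limma), and by 0.79 (SE 0.16, adjusted p = 0.0771, limma) without that replicate.

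Slc3a2 (ENSMUSG00000010095; GRCm38 chromosome 19, 8706882 to 8723369) was at 17.0, 20.4 and 24.99 in WT, 25.9 and 50.7 in Hrd1 KO, and 323, 32.9 and 26.3 in Sel1L KO. All knockout libraries were above WT, though Hrd1 KO replicate 1 and Sel1L KO replicate 3 only slightly. Lying above WT also held for 51.1% of all tested genes in Hrd1 KO and 17.7% in Sel1L KO. After median-ratio scaling it no longer held for Slc3a2 in Hrd1 KO. The log2 fold changes were 0.82 (SE 0.94) and 1.67 (SE 0.84). Without Sel1L KO replicate 1, which was 15.6 times the WT mean, they were 0.82 (SE 0.29) and 0.52 (SE 0.29).

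Slc7a5 (ENSMUSG00000040010; GRCm38 chromosome 8, 121881150 to 121907694) was almost absent from WT BAT, at 0.06, 0.04 and 0. It was at 1.54 and 1.61 in Hrd1 KO and at 8.18, 0.43 and 0.29 in Sel1L KO. Both knockouts lay above every WT library and overlapped each other. Lying above WT also held for 51.1% of all tested genes in Hrd1 KO and 17.7% in Sel1L KO. The log2 fold changes were 3.68 (SE 1.22, adjusted p = 0.107, limma) in Hrd1 KO and 3.19 (SE 1.10, adjusted p = 0.189, limma) in Sel1L KO, and without Sel1L KO replicate 1 they were 3.68 (SE 0.71, adjusted p = 0.0121, limma) and 1.80 (SE 0.71, adjusted p = 0.182, limma). As the WT values are below the 0.1 added before taking logs, these sizes depend on it.

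Within a library, Slc7a5 was 0.00354, 0.00196 and 0 of Slc3a2 in WT, 0.0595 and 0.0318 in Hrd1 KO, and 0.0253, 0.0131 and 0.0110 in Sel1L KO. The log2 ratio was higher than WT by 2.86 in Hrd1 KO and by 1.52 in Sel1L KO. This is given as a description with no test, since Slc7a5 entered the comparison only through knockout libraries. With an FPKM of 1 added in place of 0.1, the difference in Sel1L KO turned to -0.32, so its sign rests on values below 1. Slc7a11 was listed at 0 in all 3 WT libraries, at 0.09 and 0.03 in Hrd1 KO, and at 0.72, 0.03 and 0.01 in Sel1L KO, so no ratio or fold is given for it. Per length, Slc3a2 was above both light chains in all 8 libraries.

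Slc7a1 (ENSMUSG00000041313; GRCm38 chromosome 5, 148327410 to 148399904) showed a similar order of libraries. It was at 0.25, 0.14 and 0.27 in WT, 1.23 and 1.61 in Hrd1 KO, and 11.9, 0.64 and 0.39 in Sel1L KO, with every knockout library above WT. Slc7a1 had log2 fold changes of 2.26 (SE 1.21) and 2.38 (SE 1.09). Without Sel1L KO replicate 1 they were 2.26 (SE 0.55, adjusted p = 0.0238, limma) and 0.94 (SE 0.55, adjusted p = 0.339, limma), neither past the threshold of 0.01. Slc7a1 was tested only because knockout libraries reached 1 FPKM, so a difference was built into the filter and limits these p-values. Lying above WT held for 51.1% of all tested genes in Hrd1 KO and 17.7% in Sel1L KO, no fair comparison for a gene kept this way. Slc7a3 was listed at 0.03, 0.03 and 0 in WT, 0.14 and 0.04 in Hrd1 KO, and 0, 0 and 0.14 in Sel1L KO, and was not tested.

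**Figure D4:**
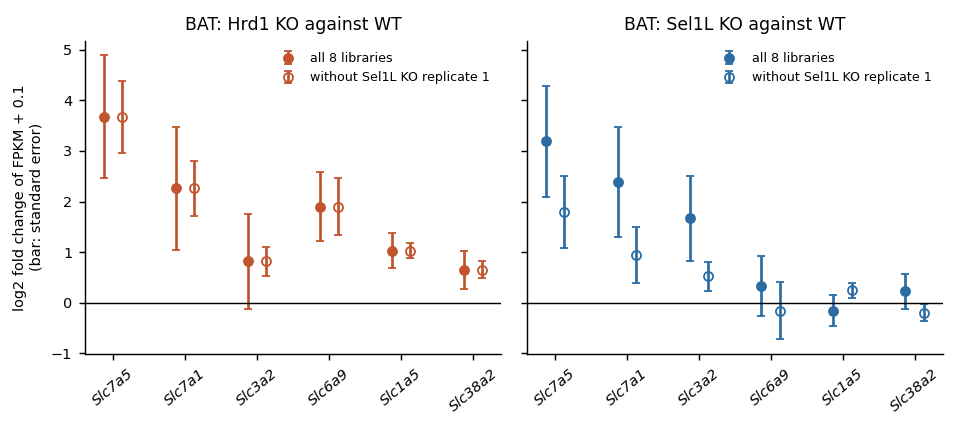
Log2 fold changes against WT of the 6 transporters tested in BAT, with the SE as bars, in the fit of all 8 libraries (filled) and without Sel1L KO replicate 1 (open). In Hrd1 KO the values stay and their bars shorten, while in Sel1L KO Slc7a5 goes from 3.19 to 1.80, Slc7a1 from 2.38 to 0.94 and Slc3a2 from 1.67 to 0.52.

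Slc1a4 was at 0.19, 0.13 and 0.34 in WT, 0.90 and 0.69 in Hrd1 KO, and 2.63, 0.48 and 0.36 in Sel1L KO. Every knockout library lay above every WT library, in Sel1L KO by as little as 0.36 against 0.34. In BAT this held for 51.1% of all tested genes in Hrd1 KO and 17.7% in Sel1L KO. The gene reached an FPKM of 1 in 1 library only and did not enter the test. Its mean was 3.61 times the WT mean in Hrd1 KO and 1.91 times in the 2 Sel1L KO libraries other than replicate 1. Slc6a9 (ENSMUSG00000028542) was at 0.21, 0.30 and 0.35 in WT, 1.41 and 1.25 in Hrd1 KO, and 0.84, 0.32 and 0.18 in Sel1L KO. Its log2 fold change was 1.90 (SE 0.68, adjusted p = 0.122, limma) in Hrd1 KO and 0.33 (SE 0.60) in Sel1L KO, where the groups overlapped. These were, without Sel1L KO replicate 1, 1.90 (SE 0.57, adjusted p = 0.0439, limma) and -0.16 (SE 0.57). Slc6a9 was tested only because Hrd1 KO libraries reached 1 FPKM, so a difference was built into the filter and limits its p-values. The exons of Slc6a9 overlap those of B4galt2, at 0.370 to 1.08 FPKM.

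Slc38a2 was steady in WT, at 14.3, 13.7 and 14.7. It was at 18.8 and 26.4 in Hrd1 KO and at 29.6, 12.99 and 11.7 in Sel1L KO, where replicate 1 was above and the other 2 libraries were below WT. The log2 fold change in Hrd1 KO was 0.65 (SE 0.38, adjusted p = 0.290, limma), 0.65 (SE 0.17, adjusted p = 0.0292, limma) without Sel1L KO replicate 1, and 0.20 (SE 0.44) after median-ratio scaling. In Sel1L KO it was 0.22 (SE 0.34), and -0.20 (SE 0.17) without replicate 1. Sel1L KO replicate 1 thus held the highest BAT value of Slc7a11, Slc7a5, Slc3a2, Slc7a1, Slc38a2 and Slc1a4, and Hrd1 KO replicate 1 that of Slc1a5, Slc6a9 and, tied with Sel1L KO replicate 3, Slc7a3. Hrd1 KO replicate 1 and Sel1L KO replicate 1 had the highest skeletal muscle marker sums. The latter also had the highest macrophage (196), red cell (2610) and lymphocyte (3.48) sums. Hrd1 KO replicate 2 had 1.61 FPKM of Slc7a5, 1.61 of Slc7a1 and 321 of Slc1a5, all above WT. Its muscle sum of 14.1 was also above WT, at 4.61 or less. Whether other cells had a part in these values was not tested.

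By mean WT level in BAT, Slc1a5 (175 ± 22.4 FPKM, SD, n = 3) was followed by Slc3a2 (20.8 ± 4.03), Slc38a2 (14.2 ± 0.526), Slc6a9 (0.287 ± 0.0709), Slc7a1 (0.220 ± 0.07), Slc1a4 (0.220 ± 0.108), Slc7a5 (0.0333 ± 0.0306), Slc7a3 (0.0200 ± 0.0173) and Slc7a11, listed at 0. The WT values of Slc6a9, Slc7a1 and Slc1a4 overlapped, as did those of Slc7a5 and Slc7a3. Between the 2 knockouts, the log2 fold change of Slc6a9 was 1.57 higher in Hrd1 KO (95% interval 0.02 to 3.12, adjusted p = 0.295, limma). Slc7a5 differed by 0.49 (-2.32 to 3.29), Slc7a1 by -0.12 (-2.90 to 2.67), Slc3a2 by -0.85 (-3.01 to 1.31) and Slc38a2 by 0.43 (-0.43 to 1.29). With that replicate 1 of Sel1L KO left out, the differences were 2.06 (SE 0.62) for Slc6a9, 1.88 (SE 0.78) for Slc7a5, 1.32 (SE 0.60) for Slc7a1, 0.30 (SE 0.32) for Slc3a2 and 0.85 (SE 0.18) for Slc38a2, so the sign turned for Slc7a1 and Slc3a2.

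Other transporters and stress pathways were read from lists. In HEK293T, 5 of 14 tested ATF6 and XBP1 targets rose in the libraries labelled HRD1 KO and 2 of 14 in SEL1L KO, and 0 fell. The median log2 fold changes of the 14 were 1.43 and 1.22. With the replicate block 10 and 8 of 14 were called, beside 25 and 12 of all tested genes. The ER disulfide isomerase PDIA4 went from 110 ± 8.75 FPKM (SD, n = 3) in WT cells to 661 ± 72.3 (n = 3) in HRD1 KO, a log2 fold change of 2.59 (SE 0.16, adjusted p = 3.48e-04, limma), and to 445 ± 56.3 (n = 3) in SEL1L KO, a change of 2.02 (SE 0.16, adjusted p = 0.00377, limma). The ER-resident neurotrophic factor MANF rose by 1.54 (SE 0.20) and 1.67 (SE 0.20), and the isomerase PDIA6 and the chaperone component SDF2L1 rose by 1.29 (SE 0.15) and 1.86 (SE 0.23) in HRD1 KO. With single libraries left out, 1 to 4 of the 14 were called in HRD1 KO and 0 (without SEL1L KO replicate 2) to 3 in SEL1L KO.

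The same HEK293T comparisons called 0 of 27 tested members of the list of ATF4 and its targets other than transporters, and 0 of 27 had an unadjusted p under 0.05 in limma, with medians of 0.13 and 0.20. Those with the smallest p were the mitochondrial serine enzyme SHMT2 (0.25, SE 0.17) and the proline synthesis enzyme ALDH18A1 (0.26, SE 0.18) in HRD1 KO, and PYCR1 of proline synthesis (0.51, SE 0.26) and PSAT1 of serine synthesis (0.40, SE 0.21) in SEL1L KO. Of 11 tested NRF2 targets 0 were called, and at an unadjusted p under 0.05 there were 0 in HRD1 KO and 1 in SEL1L KO, the haem oxygenase HMOX1 at -1.04 (SE 0.28, adjusted p = 1.00, limma). HMOX1 and SRXN1 were at -0.52 (SE 0.28) and -0.19 (SE 0.17) in HRD1 KO, and NQO1 at -0.24 (SE 0.42) in SEL1L KO. Of 15 tested other plasma membrane amino acid transporters 0 were called and 0 had an unadjusted p under 0.05 in limma. Their medians were -0.06 and -0.08, and those with the smallest p were SLC16A10 (-0.44, SE 0.24 and -0.37, SE 0.24) and SLC1A1 (0.53, SE 0.42 and 0.63, SE 0.42).

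In BAT, 4 of 27 tested members of the ATF4 list rose and 0 fell in each knockout against WT, and they were the same genes. Nupr1, a stress-induced chromatin protein, was at 58.6, 48.6 and 45.3 in WT, 187 and 189 in Hrd1 KO, and 142, 153 and 136 in Sel1L KO. Mthfd2, a mitochondrial folate enzyme, was at 0.78, 1.21 and 0.78, at 18.01 and 12.2, and at 38.7, 16.9 and 12.1. Pck2, the mitochondrial phosphoenolpyruvate carboxykinase, rose by 3.02 (SE 0.27) and 2.74 (SE 0.24), and Atf5, a transcription factor of the ATF4 family, by 2.40 (SE 0.22) and 2.08 (SE 0.20). In Sel1L KO without replicate 1, Pck2 rose by 2.63 (SE 0.24), Atf5 by 1.94 (SE 0.19), Nupr1 by 1.51 (SE 0.14) and Mthfd2 by 3.84 (SE 0.28). For all 4, Sel1L KO replicates 2 and 3 were above every WT library. The list's median was 1.89 and 2.04, and 4 of its 27 genes were below an FPKM of 1 in all WT libraries. These calls did not hold after median-ratio scaling, where 0 of 27 were called in each comparison. Of all tested genes, 5 in Hrd1 KO and 1 in Sel1L KO were called after this scaling, and the list's medians were 1.44 and 1.94. With quantile normalization 3 of 27 were called in Hrd1 KO and 0 in Sel1L KO, and with a pseudocount of 1 there were 3 in each. With the replicate block, or with a WT library left out, 0 of 27 were called each time. Without Sel1L KO replicate 2 there were 2 calls in Hrd1 KO and 0 in Sel1L KO, and with only the groups compared in the fit 5 and 0. Without Sel1L KO replicate 1 there were 11 calls in Hrd1 KO and 4 in Sel1L KO. Calls over all 12473 tested genes then also rose, from 46 to 759 in Hrd1 KO and from 13 to 61 in Sel1L KO.

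Of 14 ATF6 and XBP1 targets in BAT, 2 rose in each knockout, with list medians of 2.45 and 2.38. Sdf2l1 rose by 5.76 (SE 0.66) and 5.72 (SE 0.59) and Pdia6 by 2.40 (SE 0.28) and 2.37 (SE 0.25). In Sel1L KO without replicate 1 these were 4.91 (SE 0.22) for Sdf2l1 and 2.05 (SE 0.11) for Pdia6. After median-ratio scaling 0 of the 14 were called, beside 5 and 1 of all tested genes, and the list medians were 1.99 and 2.28. With a WT library or Sel1L KO replicate 2 left out there were 0 of the 14 as well. Without Sel1L KO replicate 1 there were 12 and 7. The 12 and 7 stand beside 759 and 61 of all 12473 tested genes called without Sel1L KO replicate 1. Without Sel1L KO replicate 3 there were 1 and 0 of the 14, and with only the groups compared in the fit 11 in Hrd1 KO and 0 in Sel1L KO. Of 10 NRF2 targets in BAT 0 were called in limma, and at an unadjusted p under 0.05 there were 4 in Hrd1 KO, all higher, and 3 in Sel1L KO, 2 higher and 1 lower. These counts stand beside 27.4% and 17.8% of all tested genes. Osgin1 had changes of 2.05 (SE 0.53) and 1.43 (SE 0.47), Abcc1 of 0.64 (SE 0.22) in Hrd1 KO, and Me1 of -0.89 (SE 0.30) in Sel1L KO. In Sel1L KO without replicate 1, Osgin1 was at 1.00 (SE 0.41) and Me1 at -1.04 (SE 0.32). Osgin1 was at 0.55, 0.51 and 0.65 FPKM in WT and was tested only because knockout libraries reached 1. A difference in Osgin1 was thus built into the filter. Of 14 other amino acid transporters 0 were called in limma, and 4 in Hrd1 KO, all higher, and 3 in Sel1L KO, 2 higher and 1 lower, reached an unadjusted p under 0.05, against the same 27.4% and 17.8%. Of these 14, 2 were below an FPKM of 1 in all WT libraries and were tested only through knockout libraries. The medians of the 14 were 0.42 and -0.27, beside 0.42 and 0.09 for all genes. Those with the smallest p were Slc36a1 at 1.38 (SE 0.33) and Slc43a2 at 1.03 (SE 0.26) in Hrd1 KO, and Slc1a3 at -0.72 (SE 0.17) and Slc7a8 at 2.18 (SE 0.52) in Sel1L KO, with adjusted p in limma of 0.0547, 0.0612, 0.0911 and 0.0942. In Sel1L KO without replicate 1, Slc1a3 was at -0.63 (SE 0.16) and Slc7a8 at 1.69 (SE 0.45).

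**Figure D5:**
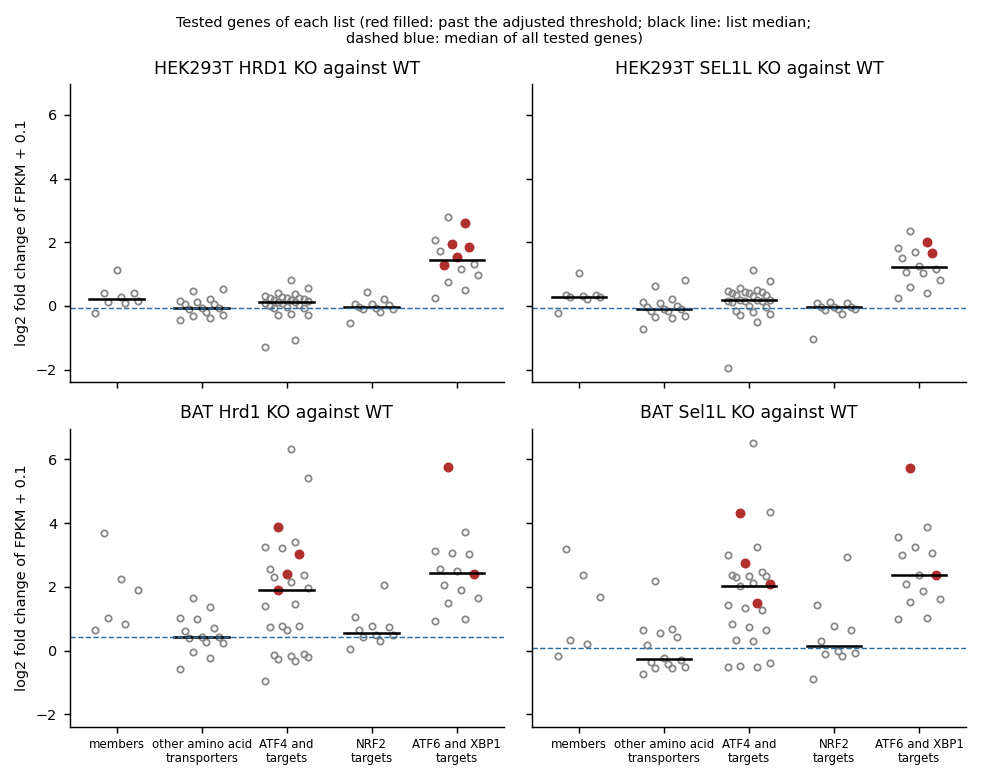
Log2 fold changes against WT of the tested genes of each list, in 4 panels by tissue and knockout; red filled points passed the adjusted threshold, black lines are list medians and the dashed line is the median of all tested genes. No line is drawn over the transporters in BAT, where 3 of 6 were tested only because knockout libraries reached the filter. In HEK293T calls are found among ATF6 and XBP1 targets only of these lists, and in BAT also among ATF4 targets.

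Between the 2 knockouts, 0 genes of the 4 lists were called in HEK293T or BAT. At an unadjusted p under 0.05 in limma there were 1 of 27 ATF4 list genes in HEK293T (the transcription factor CEBPB, -0.84, SE 0.30) and 1 of 27 in BAT (Nupr1, 0.39, SE 0.15). There were 1 of 14 ATF6 and XBP1 targets in each, PDIA4 at 0.57 (SE 0.16) and Edem1 at 0.48 (SE 0.19), 0 of 11 and 4 of 10 NRF2 targets, and 0 of 15 and 5 of 14 other amino acid transporters, of which 3 were higher and 2 lower in Hrd1 KO. Of all tested genes, 2.34% in HEK293T and 16.7% in BAT reached this p. In BAT, Slc7a10, an exchanger of small neutral amino acids, was at 2.21 (SE 0.51, adjusted p = 0.158, limma) and the NADPH-forming enzyme Me1 at 1.62 (SE 0.34, adjusted p = 0.134, limma), both higher in Hrd1 KO.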

How the data were processed

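RNA was extracted with TRIzol, and polyA-selected, paired-end libraries were sequenced on 1 flow cell. Per the labels and the study's methods, the authors aligned reads with STAR 2.7.8a to GRCh38 or GRCm38 with Ensembl genes, and RSEM 1.3.3 gave the deposited FPKM values, rounded to 2 decimals. The read totals behind each sample, and strandedness of the counting, are not given in the sources used here, and no interval for counting error was made. FPKM are relative to each library's total, so a rise in a few abundant genes lowers all others. The authors' own test used estimated counts, which were not analysed here.

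FPKM + 0.1 was taken to log2, and 1 model per table over the 3 genotypes was fitted with limma 3.58.1 (R 4.3.3, trended empirical Bayes), on genes at 1 FPKM in 3 HEK293T or 2 BAT libraries, with Benjamini-Hochberg adjustment. It was tested on simulated data. Ratios in HEK293T were compared by exact permutation of libraries, and in BAT they are described with no test. Python 3.11.15, pandas 2.3.3, NumPy 2.4.6, SciPy 1.17.1 and matplotlib 3.10.9 were used. In BAT the SLC7A11 to SLC3A2 ratio was not formed, as Slc7a11 was at 0 in WT.

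Groups came from the labels. Replicate numbers paired the HEK293T libraries, whose deviations from group means correlated at 0.216 to 0.485 in all 9 same-numbered pairs and at -0.396 to 0.0270 in the other 18. They did not pair the BAT libraries (-0.0602 to 0.0774 in 7 pairs). The transporters and all lists were chosen with earlier results of these data known. Every transporter is named, and of each other list up to 4 genes past the threshold in a comparison or otherwise the 2 with the smallest p. Alternatives were a pseudocount of 1, no filter, median-ratio scaling, quantile normalization, fits of only the groups compared, the replicate block and leaving out each library. Counts of non-overlapping genes after scaling and without Sel1L KO replicate 1 were added after seeing the data.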

Additional observations from a re-analysis of the deposited data

Results flagged for a closer look

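SLC7A3, the cationic transporter near the detection limit, had opposite directions in the libraries labelled HRD1 KO of the 2 tables. Its mean difference from WT was -0.400 FPKM in HEK293T, where all 3 knockout libraries were listed at 0, and 0.07 FPKM in BAT, where both knockout libraries were above WT. The difference between the tables was not tested, the tables were made separately, and all values were below 1 FPKM.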

How the results depend on the processing

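No transporter call changed with the replicate block or with another scaling, pseudocount or filter. At an unadjusted p under 0.05, HEK293T gave 1 transporter in HRD1 KO and 1 in SEL1L KO against WT, and BAT gave 3, 1 and 2 in Hrd1 KO and Sel1L KO against WT and between knockouts. Leaving out libraries gave 0 to 1 called transporters in BAT Hrd1 KO, the 1 being Slc1a5 without Sel1L KO replicate 1.

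Of all genes, 9 were called in HEK293T HRD1 KO, against 316 at an unadjusted p, 2 with only the groups compared, 25 with the replicate block and 2 to 18 with libraries left out. In HEK293T SEL1L KO, 5 were called, against 236, 9 without a filter, 12 with the block and 0 to 9 with libraries left out. Between HEK293T knockouts, 0 were called, against 369, 2 with the block and 0 to 13. In BAT Hrd1 KO, 46 were called, against 3417 unadjusted, 583 at an adjusted p under 0.05, 5 with median-ratio scaling, 18 with quantile normalization, 213 with only the groups compared, 5 with the block and 1 to 759 with libraries left out. In BAT Sel1L KO, 13 were called, against 2220, 110 at an adjusted p under 0.05, 1 each without a filter, with either scaling, with only the groups compared and with the block, and 1 to 61 with libraries left out. Between BAT knockouts, 5 were called, against 2080, 8 with a pseudocount of 1, 14 without a filter, 0 with only the groups compared and 1 to 8. The causes were not tested.

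Signs turned for small values. The SLC7A5 to SLC3A2 log2 ratio in HRD1 KO was 0.00 with quantile normalization, and in BAT Sel1L KO it was -0.32 with a pseudocount of 1. In BAT, quantile normalization gave -0.02 for Sel1l and -0.15 for Slc6a9 in Sel1L KO, and the block gave -0.02 for Slc7a5 between knockouts. Median-ratio scaling gave -0.01 for SLC38A2 between HEK293T knockouts.

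With libraries left out, log2 ratios ran from -0.20 to 0.57 (SLC7A11, HRD1 KO), -0.34 to 0.23 (SLC7A5, HRD1 KO) and -0.05 to 0.39 (SLC7A5, SEL1L KO) in HEK293T. Log2 fold changes in HRD1 KO ran from -0.58 to 0.21 for SLC38A2, -0.07 to 0.32 for SLC3A2, -0.04 to 0.70 for SLC6A9, -0.08 to 0.28 for SLC7A1 and -0.13 to 0.32 for SLC7A5. In SEL1L KO they ran from -0.59 to 0.13 for NQO1, -0.48 to 0.03 for SLC38A2 and -0.15 to 0.56 for SLC6A9. Between HEK293T knockouts they ran from -0.06 to 0.37 for SLC1A4, -0.09 to 0.26 for SLC1A5, -0.35 to 0.44 for SLC38A2, -0.28 to 0.11 for SLC3A2, -0.54 to 0.02 for SLC6A6, -0.16 to 0.42 for SLC6A9, -0.37 to 0.02 for SLC7A1 and -0.35 to 0.14 for SLC7A11. In BAT Sel1L KO they ran from -0.36 to 0.45 for Sel1l, -0.38 to 0.24 for Slc1a5, -0.20 to 0.46 for Slc38a2 and -0.16 to 0.72 for Slc6a9. Between BAT knockouts they ran from -0.86 to 0.38 for Hsp90b1, -1.51 to 0.30 for Slc3a2, -0.98 to 1.32 for Slc7a1, -0.32 to 1.88 for Slc7a5 and -1.66 to 0.11 for Syvn1. A group left with 1 library was assumed to vary like the others. Genes near 0 are limited by depth, which is unknown.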
